A study of Mus musculus with 6 samples.

Results

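A set of 10 genes of the BCL2 family was followed in mature oocytes of aged mice, namely *Bcl2*, *Bcl2l1*, *Bcl2l10*, *Bcl2l11*, *Mcl1*, *Bax*, *Bak1*, *Bok*, *Bid* and *Bbc3*. They were taken by gene symbol, through the Ensembl gene ID of each row, and are 10 of the 53465 genes with a row of read counts. The oocytes came from female Kunming (KM) mice aged 9 to 10 months. By the methods of the study, mice were injected with pregnant mare serum gonadotropin before collection. Immature oocytes were then freed of cumulus cells by pipetting. They were matured in vitro (IVM) for 16 h in M16 medium, either without quercetin (control) or with 10 μM of this plant flavonol, which had been dissolved in DMSO. Whether the control medium contained DMSO is not given in the sources used here. Each group had 3 pools, and each pool held 15 M II stage oocytes, the stage at which maturation ends, from 3 mice. No source used here says that different pools came from different mice, so the p-values measure the spread between these pools only.

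Proteins of the BCL2 family decide whether the outer mitochondrial membrane is opened to release cytochrome c, a commitment point of apoptosis. Anti-apoptotic members bind and hold back the pore-forming effectors BAX and BAK, while BH3-only members release these effectors or activate them directly. BOK, another effector, is also known to act without activation by BH3-only members. In the ovary the family is known for controlling the loss of germ cells and the death of oocytes after DNA damage, and *Bcl2l10* (also called Diva or Boo) is known for its high expression in the oocyte. Both death-blocking and death-promoting activities have been described for the mouse BCL2L10 protein. It is grouped here with the anti-apoptotic members, by its relationship to them.

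Multidomain members share the BH1 domain, and its most conserved stretch is shown for every member that has it, because *Bcl2l10*, the most abundant member by far, was alone there in lacking the glycine codon after tryptophan. The reading frame of the longest coding transcript was searched for an asparagine, serine or threonine codon, then a tryptophan codon, then glycine or serine, then arginine, lysine or glutamine, then isoleucine, leucine or valine, and last valine or threonine. The choices allowed after tryptophan were widened with the *Bcl2l10* sequence in view. Among the members, threonine before tryptophan and lysine were needed for *Bok* alone. Because the pattern was shaped to the members, the counts of genes that hold it are a description and not a test. The signature was found in 7 of the 10 members, which were the 4 anti-apoptotic members and the 3 effectors, and in 21 of 21764 genes with a coding sequence (0.0965%). *Bcl2l11*, *Bid* and *Bbc3*, the BH3-only members, did not hold these letters. Each line gives 60 coding bases 5′ to 3′ from the GENCODE M21 reference transcripts on GRCm38. The first 4 codons of the signature are in capitals, and its remaining codons follow in small letters. All lines hold reference letters, not letters read from the Kunming oocytes.
Bcl2l10: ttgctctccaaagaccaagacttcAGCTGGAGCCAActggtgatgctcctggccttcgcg
Bcl2l1: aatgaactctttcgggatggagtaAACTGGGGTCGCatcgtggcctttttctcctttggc
Mcl1: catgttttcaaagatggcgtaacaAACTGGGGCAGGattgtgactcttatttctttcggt
Bcl2: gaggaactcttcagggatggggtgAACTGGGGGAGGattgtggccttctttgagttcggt
Bax: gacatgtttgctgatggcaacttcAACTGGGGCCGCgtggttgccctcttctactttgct
Bak1: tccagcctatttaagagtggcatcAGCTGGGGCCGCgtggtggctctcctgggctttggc
Bok: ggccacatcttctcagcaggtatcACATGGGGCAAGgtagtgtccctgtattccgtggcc

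The tryptophan codon TGG was the second signature codon in all 7 sequences. The codon after it began with GG, as glycine codons do, in 6 of them, while it was AGC, a serine codon, in *Bcl2l10*. The stretch lies in exon 1 of 2 of *Bcl2l10* (chr9:75348134-75348193, plus strand), exon 2 of 3 of *Bcl2l1* (chr2:152829550-152829609, minus strand), exon 2 of 3 of *Mcl1* (chr3:95659826-95659885, plus strand), exon 1 of 2 of *Bcl2* (chr1:106712428-106712487, minus strand) and exon 4 of 6 of *Bax* (chr7:45465207-45465266, minus strand). It crosses a splice junction in *Bak1* (exons 4 and 5 of 6, chr17:27021293-27022443, minus strand) and in *Bok* (exons 3 and 4 of 5, chr1:93689267-93694100, plus strand). Over the 60 bases *Bcl2l10* was identical to another member at 22 (*Bcl2l1*) to 32 (*Bak1*) positions, or 36.7% to 53.3%. Pairs that did not include *Bcl2l10* were identical at 26 to 43 positions.

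The pools had 7880467 to 9938743 counts each, and these totals overlapped between groups (exact permutation test, two-sided, p = 0.7, where 3 pools against 3 cannot go under 0.1). Levels are given in CPM, the counts of a gene divided by the TMM-scaled library size and brought to a fixed total, on which scale 3 counts, the floor used here, correspond to 0.329 to 0.376 CPM. Floors and binomial intervals cover counting error only, because reads of amplified libraries are not independent molecules. Oocyte transcripts were abundant in every pool. The 12 oocyte markers summed to 24282 to 27729 CPM in control and 25643 to 29396 CPM in quercetin pools. Most of this was *Dppa3*, *Gdf9* and *Oosp1* (means over 6 pools of 8571, 6243 and 5990 CPM), while *Figla* was near the floor (0.74 CPM). Of the 11 tested oocyte markers, 7 were higher and 4 lower with quercetin. *Ooep* alone had a 95% interval that did not cross 0 (log2 fold change −0.915, −1.785 to −0.046, unadjusted p = 0.0412, adjusted p = 0.988, edgeR). Among all tested genes, 4.03% had an unadjusted p under 0.05 in this fit. The means of *Ooep* were 718 CPM in control and 381 CPM in quercetin pools, and its pools overlapped (exact permutation test, two-sided, p = 0.2). The 13 cumulus and granulosa markers summed to 70.5 to 86.7 CPM in control and 91.7 to 97.1 CPM in quercetin pools, so these ranges did not overlap. Of all tested genes taken singly, 10.6% had control and quercetin pools that did not overlap. The adjusted p was 0.988 for each of *Cyp19a1* and *Kitl* (edgeR), and the sum itself was not tested. Most of the sum was *Cyp19a1* (means of 64.3 CPM in control and 74.6 CPM in quercetin pools) and *Kitl* (8.11 and 12.2 CPM), while *Fshr*, *Ptgs2* and *Star* had lower means with quercetin, and 4 of the 13 (*Amh*, *Amhr2*, *Foxl2*, *Ptx3*) were at 0 in every pool. The part of the cumulus and granulosa transcripts in the values of the members was not tested. Immune markers (4) summed to 2.81 to 3.85 and 3.07 to 4.002 CPM, and both erythroid markers were at 0 in every pool.

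*Bcl2l10* was the most abundant member, with a mean level per length 3709 times that of *Bcl2l1*, the next. No member that could be tested was called between groups, and neither was any other gene in the main test. Of the 10 members, 6 had enough counts to be tested, namely *Bcl2l10*, *Bcl2l1*, *Mcl1*, *Bax*, *Bcl2l11* and *Bid*. None of these 6 passed edgeR's quasi-likelihood test at an adjusted p under 0.05 with a fold change over 2, and none reached an unadjusted p under 0.05. Among all 11842 tested genes, 0 (0%) passed the first rule and 477 (4.03%, with 2.14% higher and 1.89% lower in quercetin pools) the second, while DESeq2 called 12 genes and edgeR's likelihood ratio test 16 under the first rule. No tested member had control and quercetin pools that did not overlap, against 10.6% of all tested genes (5.42% higher and 5.17% lower with quercetin). The estimates were above 0 for 2 members and below 0 for 4, with a median log2 fold change of −0.07, where the median over all tested genes was −0.03. For *Mcl1* the 95% interval ran from 0.321-fold to 1.96-fold, and for *Bid* from 0.467-fold to 1.91-fold (edgeR). The absence of calls among the members therefore does not show equal levels. A lower level in such pools can come from fewer cells with the transcript or from less of it in each cell, and these cannot be told apart.

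**Figure D1:**
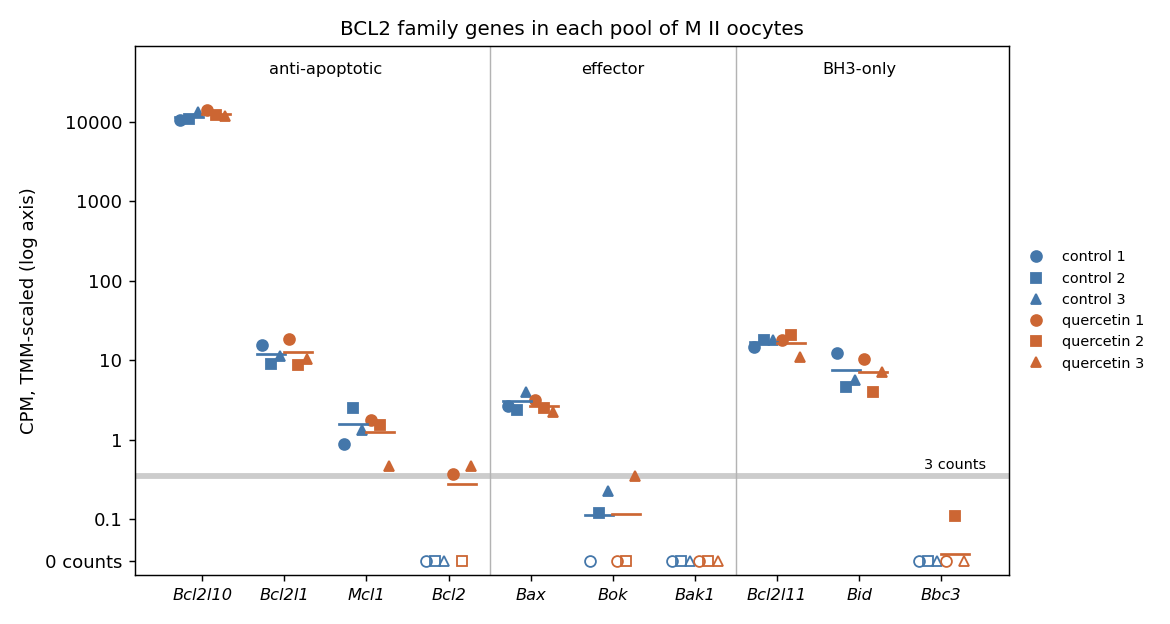
CPM after TMM scaling (log axis) of the 10 members in each of the 6 pools, by role. Circles, squares and triangles are pools 1, 2 and 3, open symbols mark 0 counts, short lines are group means and the grey band is the level of 3 counts. *Bcl2l10* lies between 10396 and 14026 CPM, every other member is at or under 20.6 CPM, and the blue (control) and orange (quercetin) symbols overlap for each of the 6 tested members.

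*Bcl2l10* (ENSMUSG00000032191, chr9:75347758-75351632, plus strand) had 92643, 90110 and 117664 counts in the control pools and 111967, 112328 and 99889 in the quercetin pools. After scaling these were 10396, 10833 and 13238 CPM in controls and 14026, 12321 and 11757 CPM with quercetin. The highest pool was quercetin 1 and the lowest control 1, at 1.35 times between them, and control 3 lay above quercetin 2 and 3. The means were 11489 ± 1530 CPM in controls and 12701 ± 1181 CPM with quercetin (SD, n = 3 each). The log2 fold change was 0.15 (SE 0.16, 95% interval −0.21 to 0.50, a fold of 0.865 to 1.41), with an adjusted p of 0.988 (edgeR's quasi-likelihood test, Benjamini-Hochberg adjustment over 11842 genes) and an unadjusted p of 0.38. The quercetin pool was higher in 7 of the 9 control-quercetin pairs of pools. The interval leaves room for a decrease of up to 0.865-fold or an increase of up to 1.41-fold, so the absence of a call does not show equal levels. Leaving out each pool in turn kept the estimate between 0.07 and 0.27.

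This gene took over 1% of all counts in every pool. Its share was 1.07% (exact Clopper-Pearson 95% interval 1.06% to 1.07%), 1.14% and 1.32% of the control pools and 1.32%, 1.13% and 1.23% of the quercetin pools. The shares overlapped between groups (1.18% ± 0.13 against 1.23% ± 0.10, exact permutation test, two-sided, p = 0.7). The spread between pools of 1 group was wider than that counting interval. By counts the gene ranked 1 among all genes in control 3 and quercetin 3, 2 in control 2 and quercetin 1, 3 in control 1 and 4 in quercetin 2. Of the counts on the 10 members, it held 99.6% to 99.7% in every pool, and the other 9 members together had 272 to 415 counts. No exon base of *Bcl2l10* overlaps another annotated gene, and none of its 31-base words occurs in transcripts of another gene. No exact copy of these words was thus found in this annotation, and sharing of reads aligned with mismatches was not examined.

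Levels of different genes were compared per length, as CPM per kilobase of the union of annotated exons. On this scale *Bcl2l10* was at 9914 ± 1141 (SD, n = 6 pools, range 8521 to 11497), which was the highest mean of 24437 genes. The next gene was *Dppa3*, a maternal factor that protects the maternal genome of the zygote from demethylation, at 9609 ± 1358 CPM per kilobase. *Dppa3* exceeded *Bcl2l10* in control 1 and quercetin 2, and their ranges over pools overlapped, so the first place was not separated from the second. Other genes known from the oocyte were lower on the same scale, with *Oosp1* at 6163 ± 940 and *Gdf9*, an oocyte growth factor, at 3074 ± 353 CPM per kilobase. Without the division by length, *Mphosph6* stood first at a mean of 12594 CPM and *Bcl2l10* second at 12095 CPM.

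**Figure D2:**
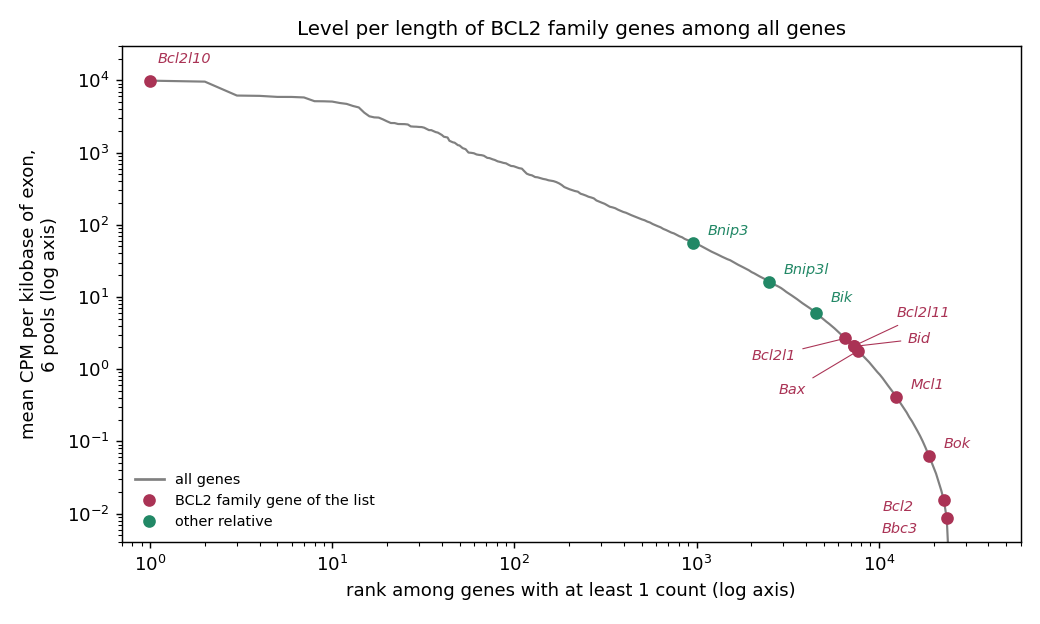
Mean CPM per kilobase of exon over the 6 pools (log axis) against rank among 24437 genes (log axis). The grey line is all genes, red points are members with at least 1 count, green points are other relatives of the family. *Bcl2l10* is at rank 1, *Bnip3* at 961, the members *Bcl2l1*, *Bcl2l11*, *Bid* and *Bax* between 6543 and 7720, and *Mcl1* at 12468.

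The remaining anti-apoptotic members were scarce. *Bcl2l1* (ENSMUSG00000007659, chr2:152780668-152831728), which encodes BCL-XL, a general inhibitor of BAX and BAK, had 139, 74 and 100 counts in controls and 149, 80 and 88 with quercetin. These were 15.6, 8.90 and 11.3 CPM against 18.7, 8.78 and 10.4 CPM. Pool 1 was the highest in each group, and the quercetin pools enclosed the controls. The means were 11.9 ± 3.40 and 12.6 ± 5.31 CPM (SD, n = 3 each), and the log2 fold change was 0.08 (SE 0.34, interval −0.69 to 0.84, adjusted p = 0.997, edgeR). With library size alone as the scaling, the estimate turned to −0.01.

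*Mcl1* (ENSMUSG00000038612, chr3:95658788-95663176) encodes a short-lived inhibitor that binds BIM and BAK. It had 8, 21 and 12 counts in controls and 14, 14 and 4 with quercetin, or 1.59 ± 0.84 and 1.25 ± 0.69 CPM (SD, n = 3 each). The highest pool, control 2, was 5.36 times the lowest, quercetin 3, and the groups overlapped. Its log2 fold change of −0.34 had the widest interval of the 6 tested members, from −1.64 to 0.97 (SE 0.58, adjusted p = 0.988, edgeR), a fold of 0.321 to 1.96. *Bcl2* (ENSMUSG00000057329, chr1:106538178-106714274), the founding member of the family, had 0 counts in all 3 control pools and 3, 0 and 4 counts in quercetin pools. It was too low to be tested, and no fold is given because quercetin 2 was also at 0 and the other quercetin pools were at or just over the floor. A two-sided exact permutation test gave p = 0.4, and a fit without the filter on low counts gave an unadjusted p of 0.0446 and an adjusted p of 0.834 (edgeR). Of the exon bases of *Bcl2*, 6.09% overlap *D630008O14Rik*, and 6.2% of its 31-base words occur in transcripts of other genes. The origin of its few reads is therefore uncertain.

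Effectors form the pore. *Bax* (ENSMUSG00000003873, chr7:45461697-45466898) had 24, 20 and 36 counts in controls and 25, 23 and 19 with quercetin, or 2.69, 2.40 and 4.05 CPM against 3.13, 2.52 and 2.24 CPM. Control 3 was the highest pool and quercetin 3 the lowest, and the other 4 pools lay between them in mixed order. The means were 3.05 ± 0.88 and 2.63 ± 0.46 CPM (SD, n = 3 each), with a log2 fold change of −0.22 (SE 0.34, interval −0.99 to 0.56, adjusted p = 0.988, edgeR). Of its exon bases, 12.2% overlap *Gm45808*, and reads there cannot be assigned with certainty.

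*Bak1* (ENSMUSG00000057789, chr17:27019810-27029009), the partner effector that resides on the mitochondrial membrane, had 0 counts in all 6 pools, which allows up to 0.329 to 0.376 CPM per pool. Of its exon bases, 25.5% overlap *Ggnbp1*, the largest such share among the 10 members, and how reads there were counted is not known. *Bok* (ENSMUSG00000026278, chr1:93685660-93695764), an effector also known to act without activation by BH3-only proteins, had 0, 1 and 2 counts in controls and 0, 0 and 3 with quercetin. Among the 3 effectors, *Bax* was the one whose counts exceeded the floor of 3. The presence or absence of the proteins was not measured in these libraries.

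BH3-only members sense damage and act on the other classes. *Bcl2l11* (ENSMUSG00000027381, chr2:128126038-128162547) encodes BIM, which binds anti-apoptotic members broadly and activates BAX. Its counts were 132, 151 and 161 in controls and 142, 188 and 93 with quercetin, or 17.03 ± 1.92 and 16.5 ± 4.97 CPM (SD, n = 3 each). Quercetin 2 was the highest and quercetin 3 the lowest of all 6 pools, so the quercetin pools enclosed the controls. The log2 fold change was −0.05 (SE 0.27, interval −0.65 to 0.55, adjusted p = 0.997, edgeR).

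*Bid* (ENSMUSG00000004446, chr6:120891930-120916853) links death receptors to mitochondria once caspase 8 has cut its product. It had 109, 39 and 50 counts in controls and 82, 36 and 61 with quercetin, or 12.2, 4.69 and 5.63 CPM against 10.3, 3.95 and 7.18 CPM. Pool 1 was again the highest of each group, and the groups overlapped. The means were 7.52 ± 4.11 and 7.13 ± 3.16 CPM (SD, n = 3 each), with a log2 fold change of −0.08 (SE 0.45, interval −1.10 to 0.94, adjusted p = 0.998, edgeR). *Bid* shares 17.7% of its exon bases with its relative *Bcl2l13*. *Bbc3* (ENSMUSG00000002083, chr7:16308393-16318205), which encodes PUMA, a BH3-only protein known to act in oocytes after DNA damage, had 1 count in quercetin 2 and 0 in the other 5 pools.

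**Figure D3:**
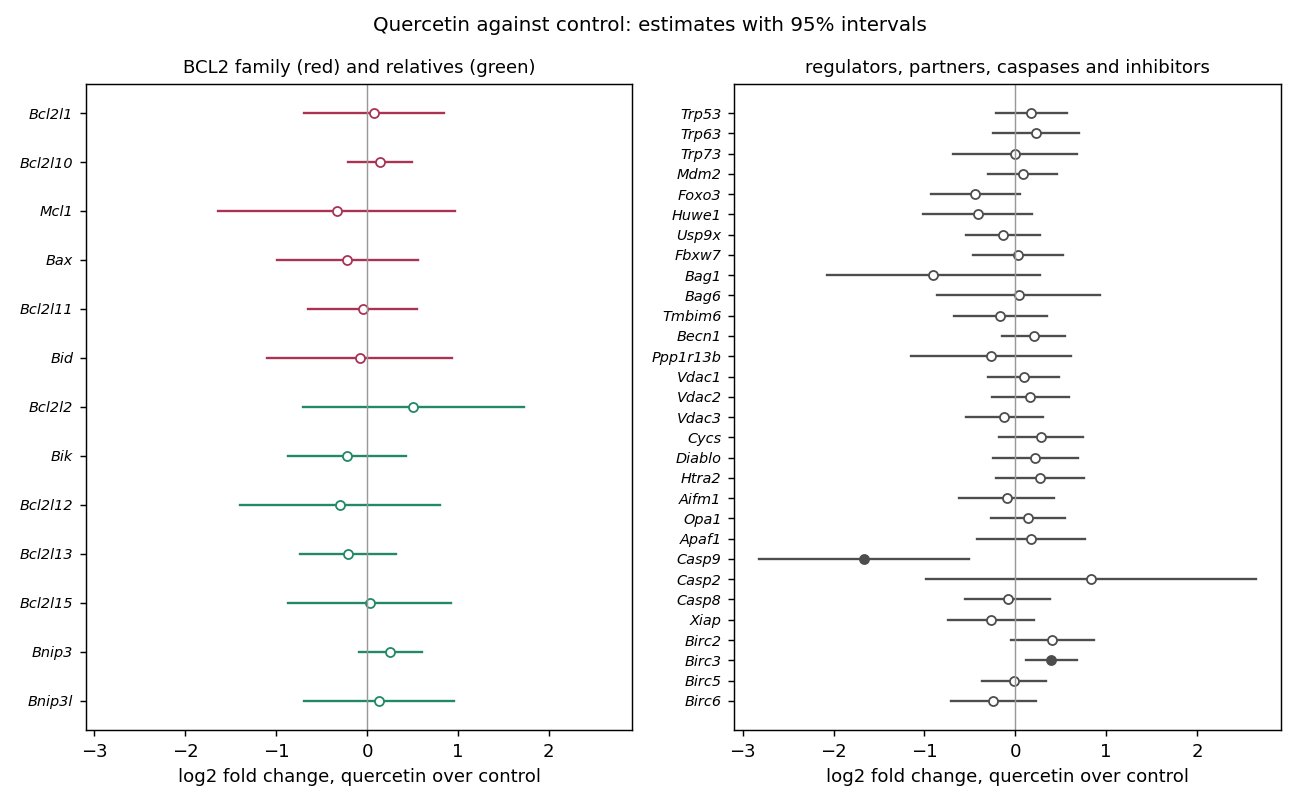
Log2 fold change of quercetin over control with 95% intervals from edgeR's quasi-likelihood fit, for the tested members (red) and relatives (green) on the left and the tested genes of the wider pathway on the right. Filled points have an unadjusted p under 0.05, which only *Casp9* (−1.66) and *Birc3* (0.40) reached, and the intervals of all 6 members cross 0.

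Per kilobase of exon, the order of the members after *Bcl2l10* was *Bcl2l1* (2.67 ± 0.87), *Bcl2l11* (2.09 ± 0.42), *Bid* (2.06 ± 0.93), *Bax* (1.802 ± 0.42) and *Mcl1* (0.42 ± 0.21, SD, n = 6 pools, in CPM per kilobase). The mean of *Bcl2l10* was 3709 times that of *Bcl2l1* on this scale, and within single pools the ratio ran from 2505 to 5278. The longest annotated transcript in place of the union of exons gave 2077 times. The 4 members from *Bcl2l1* to *Bax* had overlapping ranges over pools, so their order was not resolved. *Bok*, *Bcl2* and *Bbc3* followed at 0.063 CPM per kilobase or less.

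Summed per kilobase by role, anti-apoptotic members reached 9420 ± 1254 CPM per kilobase in controls and 10414 ± 970 with quercetin, nearly all of it *Bcl2l10*. Without that gene, the anti-apoptotic sum was 3.06 ± 0.53 in controls and 3.15 ± 1.28 CPM per kilobase with quercetin. The effectors summed to 2.00 ± 0.60 and 1.73 ± 0.22 CPM per kilobase, and the BH3-only members to 4.24 ± 0.92 and 4.08 ± 0.91 (SD, n = 3 pools each). Each pair of sums overlapped between the groups. Which class had the largest sum therefore turned on whether *Bcl2l10* was included.

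The spread between pools was itself uneven across members. Between the highest and the lowest pool the level differed 1.35 times for *Bcl2l10*, 1.81 times for *Bax* and 1.88 times for *Bcl2l11*. For *Bcl2l1* it differed 2.13 times, for *Bid* 3.10 times and for *Mcl1* 5.36 times. Counts per pool were 90110 to 117664 for *Bcl2l10* but 4 to 21 for *Mcl1*, and the part of counting error in these spreads was not tested. *Bcl2l1* and *Bid* were both highest in pool 1 of each group. Relative to the mean over 6 pools, *Bcl2l1* was at 1.27 in control 1 and 1.52 in quercetin 1, and *Bid* at 1.67 and 1.40. The same 2 pools had the lowest level of *Zp2*, a zona pellucida gene of the oocyte, at 0.28 and 0.17 of its mean. Of the oocyte markers *Zp2* had the widest spread between pools (11.9 times). *Zp1*, *Zp3*, *Bmp15*, *Nlrp5* and *Ooep* were also lowest in pool 1 of each group. In contrast, *Gdf9* was highest there (5864 CPM in control 1 and 7504 CPM in quercetin 1). *Figla*, *Mos*, *Oosp1*, *Dppa3* and *Nobox* were not lowest in both. The part of this difference between pools in the values of *Bcl2l1* and *Bid* was not tested. Replicate numbers are not known to mark a shared day or litter.

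**Figure D4:**
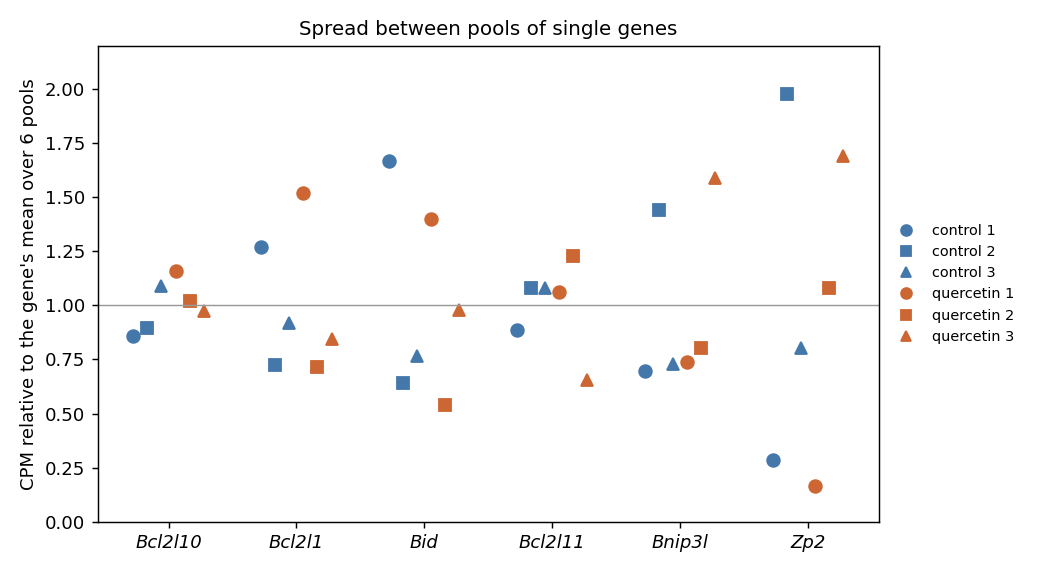
CPM of 6 genes in each pool relative to the gene's mean over the 6 pools, which is the line at 1. *Bcl2l10* stays between 0.86 and 1.16, *Bcl2l1* and *Bid* are highest in control 1 and quercetin 1, where *Zp2* is lowest at 0.28 and 0.17, and *Bnip3l* and *Zp2* are highest in control 2 and quercetin 3.

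The 3 genes that followed *Bcl2l10* most closely over the 6 pools, by Pearson r of log2 CPM among 7930 genes with a mean of at least 5 CPM, were *Prr5l* (r = 0.985), *Spint2* (r = 0.974) and *Acot9* (r = 0.972). The points share their libraries and scaling, 59 of the genes searched had an r over 0.9, and the values are a description over 6 pools.

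Other relatives of the family were examined as well, 15 in all. Of these, 7 were tested, none reached an unadjusted p under 0.05, 4 estimates were higher and 3 lower with quercetin, and the median log2 fold change was 0.03. *Bmf*, *Hrk*, *Bcl2a1d* and *Bcl2l14* were at 0 in every pool. *Bnip3*, a mitochondrial protein best known for mitophagy, was the next most abundant gene after *Bcl2l10* among all 25, at 56.7 ± 8.29 CPM per kilobase, where the mean of *Bcl2l10* was 175 times higher. Its pools were at 115, 119 and 117 CPM in controls and 134, 164 and 122 CPM with quercetin, so each quercetin pool was above each control pool, as for 5.42% of all tested genes. The log2 fold change was 0.26 (SE 0.15, interval −0.09 to 0.61, unadjusted p = 0.129, adjusted p = 0.988, edgeR). Of its 31-base words, 57.0% also occur in transcripts of other genes, so its counts are uncertain.

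*Bnip3l*, its close relative in mitophagy, had 43.8, 90.7 and 45.8 CPM in controls and 46.6, 50.6 and 100.3 CPM with quercetin. Control 2 and quercetin 3 stood about equally far above the other 4 pools, and the groups overlapped (log2 fold change 0.13, SE 0.37, adjusted p = 0.995, edgeR). *Bik*, a BH3-only gene, was at 10.2 ± 1.87 and 8.76 ± 2.42 CPM (SD, n = 3 each, log2 fold change −0.22, SE 0.29). Per kilobase it was at 5.96 ± 1.31 CPM, above each of the 9 members other than *Bcl2l10* by mean, although its range over pools overlapped that of *Bcl2l1*. *Bcl2l13*, a mitophagy receptor, had a log2 fold change of −0.21 (SE 0.23), *Bcl2l12* of −0.30 (SE 0.49), *Bcl2l15* of 0.03 (SE 0.40) and *Bcl2l2*, which encodes the inhibitor BCL-W, of 0.51 (SE 0.54). *Pmaip1*, which encodes NOXA, a binder of MCL1, had 8, 2 and 2 counts in controls and 17, 9 and 3 with quercetin. It was too low to be tested, and its groups overlapped (exact permutation test, two-sided, p = 0.2).

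In the wider pathway, 39 genes that regulate the family, work with it at mitochondria or act as caspases and their inhibitors were examined. Of these, 30 were tested, with 16 estimates higher and 14 lower with quercetin and a median log2 fold change of 0.03. An unadjusted p under 0.05 was reached by 2 of the 30, against 4.03% of all tested genes, and none passed the adjusted rule. Control and quercetin pools did not overlap for *Birc2* and *Birc3*, which were higher with quercetin, nor for *Foxo3* and *Casp9*, which were lower. Over all tested genes such separation was seen for 5.42% in the higher and 5.17% in the lower direction. These shares do not cover the 9 pathway genes too low to be tested. Among them only *Mtch2*, a receptor for BID on mitochondria, had no overlap. Its counts were 7, 3 and 3 in controls and 13, 14 and 8 with quercetin. The nearest pools were control 1 at 0.79 CPM and quercetin 3 at 0.94 CPM. A two-sided exact permutation test gave p = 0.1, the smallest value that 3 pools against 3 can give. No share over all genes too low to be tested was computed, so this separation has no background beside it.

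*Birc3*, an inhibitor of apoptosis protein and ubiquitin ligase, was the most abundant gene of the pathway list per kilobase. It had 1016, 1047 and 1034 CPM in controls and 1358, 1445 and 1276 CPM with quercetin. The lowest quercetin pool lay above the highest control pool. The log2 fold change was 0.40 (SE 0.13, interval 0.11 to 0.68), with an unadjusted p of 0.0114 and an adjusted p of 0.988 (edgeR), so it did not pass. Of its 31-base words, 11.6% occur in transcripts of other genes. *Casp9*, the caspase that the apoptosome activates, had 48, 61 and 35 counts in controls and 26, 12 and 6 with quercetin (log2 fold change −1.66, SE 0.51, unadjusted p = 0.01, adjusted p = 0.988, edgeR). *Mdm2*, the ubiquitin ligase of p53, had a log2 fold change of 0.08 (SE 0.17), *Usp9x*, which stabilises MCL1, of −0.13 (SE 0.18), and *Birc5*, a gene of cell division better known as survivin, of −0.02 (SE 0.16).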

How the data were processed

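RNA of 6 pools of oocytes was made into libraries with a Smart-seq HT kit, which primes on poly(A) tails, so transcripts with short tails may be under-counted. The authors deposited counts, the reads on each of 53465 Ensembl genes, without normalization. Their text names Hisat2 and GRCm38.91, and the submitters' processing notes name CASAVA 1.8, TopHat2 2.0.6 and mm10. The counting program and its strand setting are not given in the sources used here, so overlapping genes are uncertain. Genes passing filterByExpr of edgeR 4.0.16 (minimum count 10; 11842 genes) were scaled by TMM and compared by edgeR's quasi-likelihood test (R 4.3.3, groups only, no batch term). P-values were adjusted over these genes by the Benjamini-Hochberg method. The code was tested on simulated data. Single genes were also compared by exact permutation tests (scipy 1.17.1). The standard error is the log2 fold change divided by the square root of F. Names (53274 matched), lengths, positions and sequences came from GENCODE M21. The members, the 15 relatives, the 39 pathway genes and the marker lists were chosen by symbol with earlier results of these data known. The text names every member, every tested relative, *Pmaip1* and the relatives at 0. Also named are the 4 pathway genes of highest mean CPM, those with an unadjusted p under 0.05 and the 3 genes most like *Bcl2l10*. *Pmaip1*, *Zp2*, *Birc2*, *Foxo3*, *Mtch2*, the other named oocyte and cumulus markers and the other abundant oocyte genes were named after their values were seen. Alternatives were DESeq2 1.42.0, the likelihood ratio test, other scalings and filters, unadjusted p, other gene lengths, leaving out each pool and the replicate number as a block.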

Additional observations from a re-analysis of the deposited data

How the results depend on the processing

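No member was called in any fit, and the number of genes called over all was 0 with TMM, DESeq2's size factors, library size only and a filter of at least 10 counts in every pool, which left out *Mcl1*. It was 103 with an unadjusted p (31 higher, 72 lower), 12 with DESeq2's Wald test, 16 with edgeR's likelihood ratio test and 3 with at least 1 count in total. Leaving out each pool in turn gave 0 to 7 genes, with 7 without quercetin 1 and 6 without quercetin 3, and 0 members. Without quercetin 3, 1563 genes had an unadjusted p under 0.05, against 477 with all pools.

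With library size only, the log2 fold change of *Bcl2l1* was −0.01 in place of 0.08. Leaving out each pool in turn gave log2 fold changes of 0.07 to 0.27 for *Bcl2l10*, −0.32 to 0.32 for *Bcl2l1*, −0.64 to 0.16 for *Mcl1*, −0.36 to 0.052 for *Bax*, −0.24 to 0.18 for *Bcl2l11* and −0.44 to 0.46 for *Bid*, so the sign held throughout for *Bcl2l10* alone among the 6. The level per kilobase with the longest transcript was 4.77 for *Bcl2l1*, 2.58 for *Bax*, 3.32 for *Bcl2l11* and 3.03 for *Bid*, because that transcript is shorter than the union of exons.

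Pools with the same number were not treated as pairs, since no source used here says what a number marks and the correlations of their deviations from the group means, 0.296, 0.101 and −0.03, were not all over 0.1. Control 1 correlated best with quercetin 1, but control 2 did so with quercetin 3 (0.176). With the replicate block, 0 genes and 0 members were called, 492 genes had an unadjusted p under 0.05, and the log2 fold changes were 0.15 for *Bcl2l10*, 0.04 for *Bcl2l1*, −0.37 for *Mcl1*, −0.19 for *Bax*, −0.09 for *Bcl2l11* and −0.05 for *Bid*. At this depth *Bcl2*, *Bok*, *Bbc3* and *Bak1* had too few counts for the main test.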
